A study of Rattus norvegicus with 8 samples.

Results

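The genes described here are 27 rat genes that make cholesterol from acetyl-CoA, sense its level in the endoplasmic reticulum, or take it up and move it between membranes. They were listed by gene name, with earlier results of these data known, and ordered by pathway step. A probe was matched by RefSeq accession for 26 of them, the exception being Npc1, the lysosomal cholesterol exporter. Of these, 25 were tested, among 25121 genes and unnamed probes in all. Npc1l1, a cholesterol uptake transporter best known from the small intestine, was not well above background on any of the 8 arrays. Its log2 signals were -6.67, -6.53, -6.86 and -6.92 on the Eucommia arrays, against -6.46, -6.35, -6.27 and -6.27 on the Control arrays, and no fold is given. Each of the 25 tested genes was well above background on all 8 arrays, so none entered the test through one group alone.

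The arrays measured liver RNA of male Wistar/ST rats. In the Eucommia group (n = 4 arrays), animals on a high-fat diet with high-fructose water also drank an extract of the leaves of Eucommia ulmoides, a tree used for herbal tea, for 5 weeks. The Control group (n = 4 arrays) had the same diet and fructose water without the leaves, so both groups carried the dietary load and no group on ordinary chow is included. The ages of the rats and the dose are not given in the labels used here. The labels name a numbered sample per array but do not state that each is 1 rat, so the p-values cover the spread between samples that may be technical.

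Signals are log2 values relative to the 75th percentile of each array, so that 0 is the level of that percentile. A log2 fold change is the Eucommia mean minus the Control mean, and a gene is called at a Benjamini-Hochberg adjusted p below 0.05 in a limma fit across all 25121 features. All 4 Eucommia arrays lay on 1 slide and in 1 scan session, and all 4 Control arrays on another, so slide and treatment cannot be told apart in any comparison below. Between 69.3% and 71.9% of spots were well above background on the Eucommia arrays, against 58.9% to 61.5% on the Control arrays, and no spot was saturated. The number of arrays limits the precision. The 10 hepatocyte markers (such as Alb and Ttr) were all detected, with mean log2 signals of 3.81 to 9.87. Their summed linear level was 5790 to 6620 times the 75th percentile on the Eucommia arrays and 6410 to 7430 times on the Control arrays, and 1 of the 10, Tf (transferrin), was called lower, by a log2 fold change of -0.55 (limma adjusted p = 0.00709). None of 10 Kupffer cell markers was called, with sums of 78 to 113 on the Eucommia arrays and 97.5 to 148 on the Control arrays. In the endothelial list Cdh5 was called higher (log2 fold change 1.01, 1 of 5 tested), in the stellate cell list Col1a1 (0.83, 1 of 7), and in the lymphocyte list Ptprc (0.80) and Cd3d (0.85, 2 of 6). Among 4 cholangiocyte markers Cldn4 was higher (1.54) and Epcam lower (-0.52), and none of 4 red blood cell and 3 intestinal markers was called. Among all 25121 features, 18.4% were called higher and 6.17% lower, so these few calls are not read as changes in a cell type. Lymphocyte sums were 2.89 to 3.35 on the Eucommia arrays and 1.8 to 2.56 on the Control arrays, without overlap. Cd3d, the brightest lymphocyte marker tested (mean log2 signal 0.34), weighs most in this linear sum. Not called in that list were Cd3e (-0.53), Cd3g (-0.04), Cd8a (0.14) and Cd79b (0.07). Endothelial sums were 65.7 to 76.5 on the Eucommia arrays and 73.6 to 89.4 on the Control arrays. Kdr (mean log2 signal 6.14, log2 fold change -0.26, not called) makes up most of the endothelial sum. Stellate cell sums were 27 to 35.4 on the Eucommia arrays and 19.6 to 30.6 on the Control arrays. Sums of the cholangiocyte, red blood cell and intestinal lists overlapped between the groups. The part of these differences in cell markers in the results below was not tested. In whole liver, fewer cells of a type and less RNA per cell cannot be told apart.

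Cholesterol synthesis starts by joining acetyl-CoA units into mevalonate, turns mevalonate into isoprenoid diphosphates, couples those into squalene, closes squalene into lanosterol and trims lanosterol to cholesterol. When sterols are scarce, the escort protein Scap carries the transcription factor precursor encoded by Srebf2 to the Golgi, where proteases release the active factor, which raises transcription of most genes of the pathway together. When sterols are plentiful, the Insig proteins hold Scap in the endoplasmic reticulum. The liver is a main site of this synthesis, and dietary cholesterol is known to reduce it there.

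The factor released from the Srebf2 product acts at promoters together with NF-Y, which binds CCAAT, and with Sp1, which binds GC boxes. RefSeq promoter sequences (rat build GRCr8, the 250 bases before each annotated start) were held for 23 of the 27 genes. CCAAT, or ATTGG on the other strand, occurred in 18 of the 23 windows (78.3%), against 34% of 33469 promoters of the same length and 35% of the 21851 that belong to protein-coding genes. The GC box GGGCGG, or CCGCCC on the other strand, also occurred in 18 of the 23 (78.3%), against 30.5% of all promoters and 38.9% of the protein-coding ones. The sterol regulatory element letters TCACNCCAC, or GTGGNGTGA on the other strand, were found in 0 of the 23 windows and in 0.974% of all promoters. Matches of different motifs were allowed to overlap. A match describes the letters and not a bound site, and 0 matches say only that these letters are not in this window.

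These 4 promoters are printed in full because the results below turn on their genes: Ggps1, the only gene of the set called between the groups, Idi1 and Msmo1, which varied widely between arrays, and Insig1, which came nearest to the threshold. Each is given 5′ to 3′ on the strand of its gene, with CCAAT or GC box letters in capitals.
Ggps1: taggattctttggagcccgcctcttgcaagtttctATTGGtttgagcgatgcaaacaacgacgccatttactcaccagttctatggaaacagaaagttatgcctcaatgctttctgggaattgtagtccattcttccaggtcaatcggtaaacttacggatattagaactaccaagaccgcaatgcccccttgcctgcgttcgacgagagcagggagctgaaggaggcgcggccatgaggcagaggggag
Idi1: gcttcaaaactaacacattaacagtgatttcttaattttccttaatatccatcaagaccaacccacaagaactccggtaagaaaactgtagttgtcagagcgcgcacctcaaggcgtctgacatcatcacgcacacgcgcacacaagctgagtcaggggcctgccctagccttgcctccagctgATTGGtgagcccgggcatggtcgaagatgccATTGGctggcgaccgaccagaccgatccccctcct
Insig1: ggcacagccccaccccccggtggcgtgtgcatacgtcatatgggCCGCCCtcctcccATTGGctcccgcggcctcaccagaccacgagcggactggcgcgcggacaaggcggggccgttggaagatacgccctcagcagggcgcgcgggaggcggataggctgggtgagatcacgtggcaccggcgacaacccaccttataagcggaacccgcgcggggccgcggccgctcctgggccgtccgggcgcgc
Msmo1: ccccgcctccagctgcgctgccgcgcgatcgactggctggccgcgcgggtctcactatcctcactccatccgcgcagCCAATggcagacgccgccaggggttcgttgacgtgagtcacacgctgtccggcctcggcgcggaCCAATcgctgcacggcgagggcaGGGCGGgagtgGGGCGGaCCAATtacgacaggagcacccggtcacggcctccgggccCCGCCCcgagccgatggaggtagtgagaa
The Ggps1 window lies at chr17:55958500-55958749 on the plus strand and holds a single CCAAT match, 215 bases before the start. The Idi1 window, at chr17:66547525-66547774 on the minus strand, holds 2 CCAAT matches, 66 and 35 bases before the start, and no GC box. The Insig1 window, at chr4:8057770-8058019 on the minus strand, holds 1 CCAAT match at 193 bases and 1 GC box at 206 bases. The Msmo1 window, at chr16:29746863-29747112 on the plus strand, holds 3 CCAAT matches, at 173, 109 and 68 bases, and 3 GC boxes, at 86, 75 and 29 bases.

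Between rats given Eucommia leaves and Control rats, 1 of the 25 tested genes was called, Ggps1, which was lower, and 0 were called higher. That is 4% called lower, against a background of 6.17% called lower and 18.4% called higher among all 25121 features. Over both directions, 24.6% of all features were called. The median log2 fold change of the 25 was -0.14, with a range of -0.51 to 0.21, beside a median of 0.02 over all features. Without Control 1 the median of the 25 was -0.06, and without Control 4 it was -0.21. For 20 of the 25 the mean signal lay above the 75th percentile, and among the 8960 features with such a signal the median was -0.04, with 3.73% called higher and 5.96% called lower. None of these 20 cholesterol genes was called. Signs leaned downward, with 19 of the 25 fold changes below 0, against 47.4% of all features and 57.7% of the 8960 brighter ones. The 19 include values close to 0, such as Tm7sf2 at 0.00 and Mvk at -0.01. The count was 18 with quantile normalization, 17 with cyclic loess and 18 after background correction by normexp. It was 16 with the 75th percentile taken over probes well above background on all arrays. With median centring in place of the 75th percentile, which moved the median of all features to -0.24, all 25 were below 0 and 9 were called lower (36%), near the 31.7% of all features called lower under that scaling. The groups did not overlap for 1 of the 25 genes (4%), again Ggps1, against 28.5% of all features (19.8% higher and 8.68% lower) and 17.1% of the 8960 brighter ones.

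**Figure D1:**
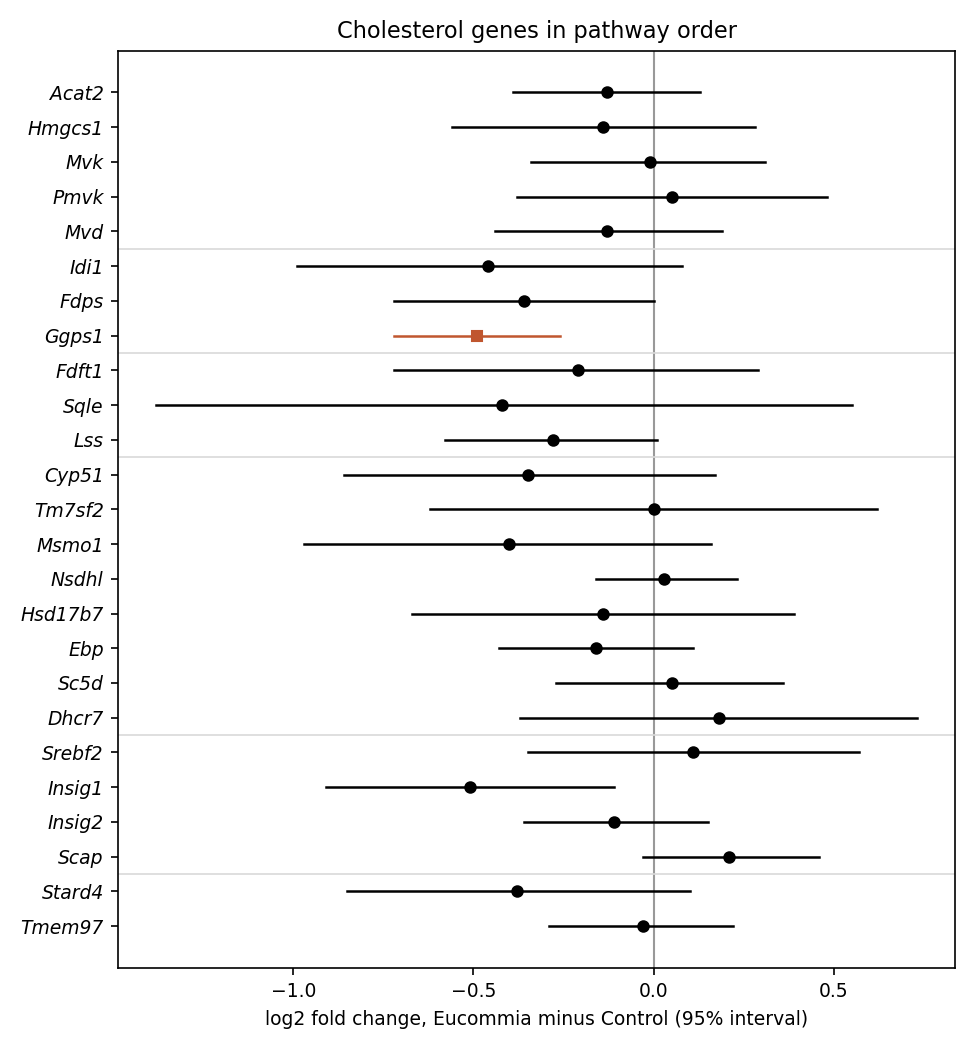
Log2 fold change of each of the 25 tested cholesterol genes, Eucommia minus Control, from top to bottom in pathway order, with 95% intervals from limma (n = 4 arrays each). Grey lines divide the pathway steps. Ggps1, drawn as a square at -0.49, is the only gene past the adjusted threshold, and the intervals of the other genes except Insig1 reach 0.

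The first 5 enzymes of the set act at some of the steps from acetyl-CoA to isopentenyl diphosphate, and none of them was called. Not every enzyme of those steps is analysed here. Acat2, the cytosolic thiolase that joins acetyl-CoA units, had log2 signals of 1.22, 1.30, 1.44 and 1.46 on the Eucommia arrays, against 1.70, 1.54, 1.44 and 1.27 on the Control arrays. The groups overlapped, and the fold change was -0.13 ± 0.12 (SE, n = 4 each, limma adjusted p = 0.461). Hmgcs1, the cytosolic HMG-CoA synthase, had 5.63, 5.78, 5.42 and 5.49 on the Eucommia arrays, against 5.97, 5.94, 5.80 and 5.18 on the Control arrays. Control 4 was the lowest array of all and the other Control arrays the highest, giving -0.14 ± 0.18 (limma adjusted p = 0.633). Its other, dimmer probe gave -0.47, also not called. The kinases Mvk and Pmvk and the decarboxylase Mvd, which make isopentenyl diphosphate from mevalonate, had log2 fold changes of -0.01, 0.05 and -0.13. Without Control 1, Acat2, Hmgcs1 and Mvd each gave -0.06, and without Control 4 they gave -0.21, -0.32 and -0.27, none of them called.

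The isoprenoid enzymes had the lowest median log2 fold change of the pathway steps, at -0.46 over 3 genes. Ggps1, which adds a further unit to farnesyl diphosphate and so makes the geranylgeranyl donor for protein prenylation instead of cholesterol, had log2 signals of -1.91, -2.10, -1.79 and -2.02 on the Eucommia arrays, against -1.49, -1.48, -1.58 and -1.32 on the Control arrays. All 4 Eucommia arrays lay below all 4 Control arrays. Ggps1 averaged -1.96 ± 0.14 in the Eucommia group and -1.47 ± 0.11 in the Control group (SD, n = 4 each), so that its signal fell to 0.712 of the Control level. The log2 difference was -0.49 ± 0.10 (SE), with a 95% interval of -0.72 to -0.26 and a limma adjusted p of 0.00757. Its single probe lay below the 75th percentile, unlike those of most of the set.

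Idi1, the isomerase that makes the reactive isoprenoid unit, had 1.38, 1.59, 2.07 and 1.65 on the Eucommia arrays, against 2.71, 2.27, 1.81 and 1.72 on the Control arrays. Control 1 and Control 2 lay above every Eucommia array, while Eucommia 3 lay above Control 3 and Control 4. The difference of -0.46 ± 0.24 did not pass (95% interval -0.99 to 0.08, limma adjusted p = 0.206), and its other probe gave -0.52. Without Control 1 it was -0.26. Fdps, the farnesyl diphosphate synthase whose product feeds both cholesterol and prenyl groups, had 4.47, 4.78, 5.05 and 4.83 on the Eucommia arrays, against 5.39, 5.31, 4.89 and 4.98 on the Control arrays. Only Eucommia 3 reached the range of the Control arrays. The difference was -0.36 ± 0.16 (95% interval -0.72 to 0.00, limma adjusted p = 0.144), and the other probe gave -0.34.

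Squalene synthesis and ring closure showed a median of -0.28 for the log2 fold change over 3 genes, with 0 called. Sqle, the squalene epoxidase and a rate-controlling enzyme of the pathway, had -0.67, 0.26, 0.82 and -0.03 on the Eucommia arrays, against 1.66, 0.44, 0.05 and -0.09 on the Control arrays. It had the widest range of the 25 genes in both groups, and its lowest and highest arrays were Eucommia 1 and Control 1. The difference of -0.42 ± 0.42 therefore has an interval of -1.38 to 0.55 (limma adjusted p = 0.533). It was -0.04 without Control 1, -0.16 without Eucommia 1 and -0.66 without Eucommia 3. Lss, the lanosterol synthase, had -1.74, -1.88, -1.92 and -1.89 on the Eucommia arrays, against -1.38, -1.42, -1.57 and -1.92 on the Control arrays. The Eucommia arrays lay together at the low end and only Control 4 joined them. The difference was -0.28 ± 0.13 (limma adjusted p = 0.153), and without Control 4 it was -0.40 with an adjusted p of 0.0218. It passed in 1 of the 8 fits that left out an array, and was -0.22 without Control 1 (adjusted p = 0.286). Fdft1, the squalene synthase, gave -0.21 ± 0.22, which became -0.04 without Control 1, -0.38 without Eucommia 3 and -0.35 without Control 3.

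The 8 enzymes from lanosterol to cholesterol showed a median difference of -0.07 on the log2 scale, and none was called. Msmo1, which oxidises methyl groups of the sterol ring, had 4.39, 4.53, 5.01 and 4.56 on the Eucommia arrays, against 5.73, 4.92, 4.90 and 4.54 on the Control arrays. Control 1 stood apart above all the others, and the difference of -0.40 ± 0.25 did not pass (limma adjusted p = 0.288). Without Control 1 it was -0.17. Cyp51, the lanosterol demethylase, gave -0.35 ± 0.23, with Control 1 again the highest array of its group, and -0.17 without that array. Nsdhl, a dehydrogenase in the removal of the same methyl groups, had 2.62, 2.73, 2.78 and 2.59 on the Eucommia arrays, against 2.71, 2.64, 2.59 and 2.65 on the Control arrays. Its arrays lay close together in both groups, and it had the narrowest interval of the set, at -0.16 to 0.23 around 0.03. Tm7sf2 (a sterol reductase), Hsd17b7 (a ketoreductase), Ebp (the sterol isomerase), Sc5d (a sterol desaturase) and Dhcr7 (the reductase that makes cholesterol from its last precursor) lay between -0.16 and 0.18.

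Of the sterol sensors, none was called, and Insig1 came nearest. Insig1, itself a known target of the factor it restrains, had log2 signals of 5.13, 5.19, 5.47 and 5.54 on the Eucommia arrays, against 6.12, 6.12, 5.61 and 5.51 on the Control arrays. The groups overlapped only through Eucommia 4, which lay just above Control 4. The difference was -0.51 ± 0.18 (SE, n = 4 each), with a 95% interval of -0.91 to -0.11 and a limma adjusted p of 0.068. All 4 of its probes gave a negative difference, at -0.50, -0.51, -0.53 and -0.73. It passed in 1 of the 8 fits that left out an array, without Control 4 (adjusted p = 0.0378), and the highest adjusted p of the other fits was 0.159. Insig2, its paralog, gave -0.11 ± 0.11, and Scap gave 0.21 ± 0.11 (limma adjusted p = 0.193). Srebf2 gave 0.11 ± 0.20 by its brighter probe. Its dimmer probe was well above background on all 4 Eucommia arrays and on 0 of 4 Control arrays, with means of -4.36 and -5.25. The detection limit of the Control arrays, at -4.30, lay above the Eucommia mean, so no fold is given for that probe.

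**Figure D2:**
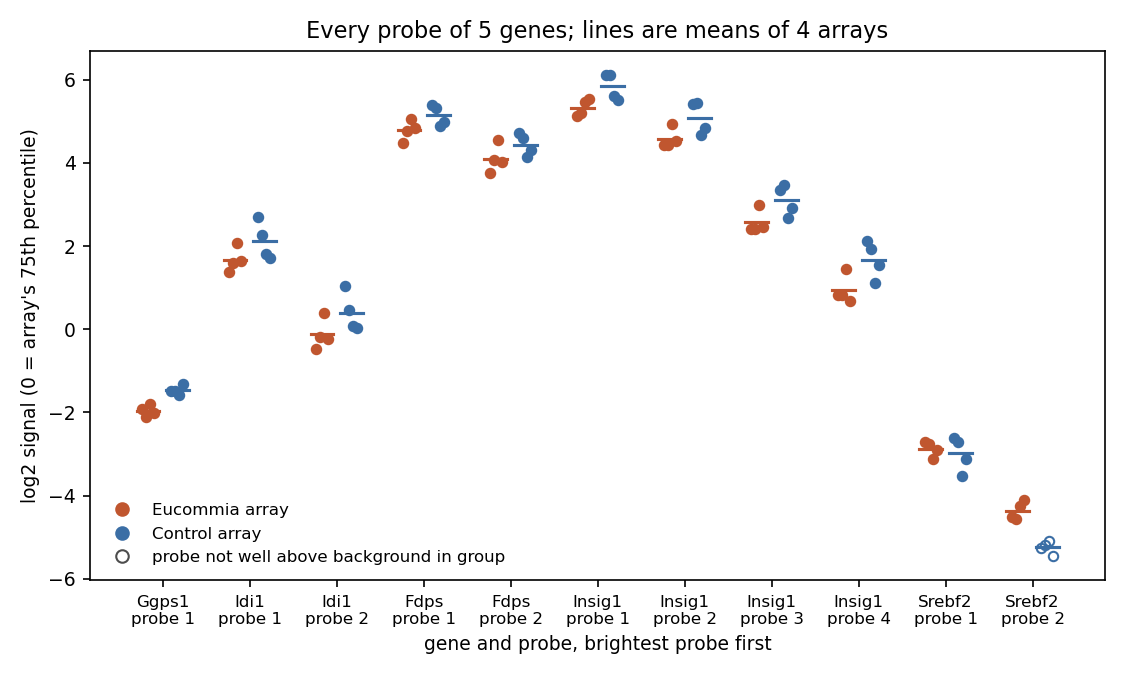
Log2 signal of every probe of Ggps1, Idi1, Fdps, Insig1 and Srebf2 on each array, Eucommia left of Control for each probe, with group means as lines (n = 4 arrays each). Open circles mark a group in which the probe was not well above background. All 4 Insig1 probes and both probes of Idi1 and Fdps have a lower Eucommia mean, and the 2 Srebf2 probes differ in detection.

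Stard4, a soluble carrier that moves cholesterol between membranes, had 0.58, 0.55, 0.80 and 0.29 on the Eucommia arrays, against 0.85, 0.78, 0.55 and 1.54 on the Control arrays. Control 4 was its highest array, in contrast to most of the set, and the difference of -0.38 ± 0.21 did not pass (limma adjusted p = 0.241). Without Control 4 it was -0.17. Tmem97, a membrane protein that binds Npc1 in human cells, gave -0.03 ± 0.11.

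The 25 genes varied between arrays of the same group, and many took the same order of arrays. Deviations from each gene's group mean had a median of -0.14, -0.05, 0.15 and -0.04 on Eucommia 1 to 4, and of 0.25, 0.08, -0.12 and -0.22 on Control 1 to 4. For brighter features the medians were -0.02, -0.03, -0.01 and 0.08 on Eucommia 1 to 4, and -0.03, 0.03, 0.01 and -0.01 on Control 1 to 4. Eucommia 4 was the highest array of its group for 51.7% of brighter features with a value on every array, but for 7 of the 25 genes. Eucommia 3 was the highest array of its group for 15 of the 25 genes, against 19% of 8949 brighter features with a value on every array, and Eucommia 1 the lowest for 11, against 27.3%. Control 1 was the highest of its group for 19 of the 25, against 21% of the brighter features, and Control 4 the lowest for 16, against 28.7%. All brighter features, but only 20 of the 25 genes, had a mean signal above the 75th percentile. These counts describe genes that share a pathway and the same arrays, and no test was made of them.

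**Figure D3:**
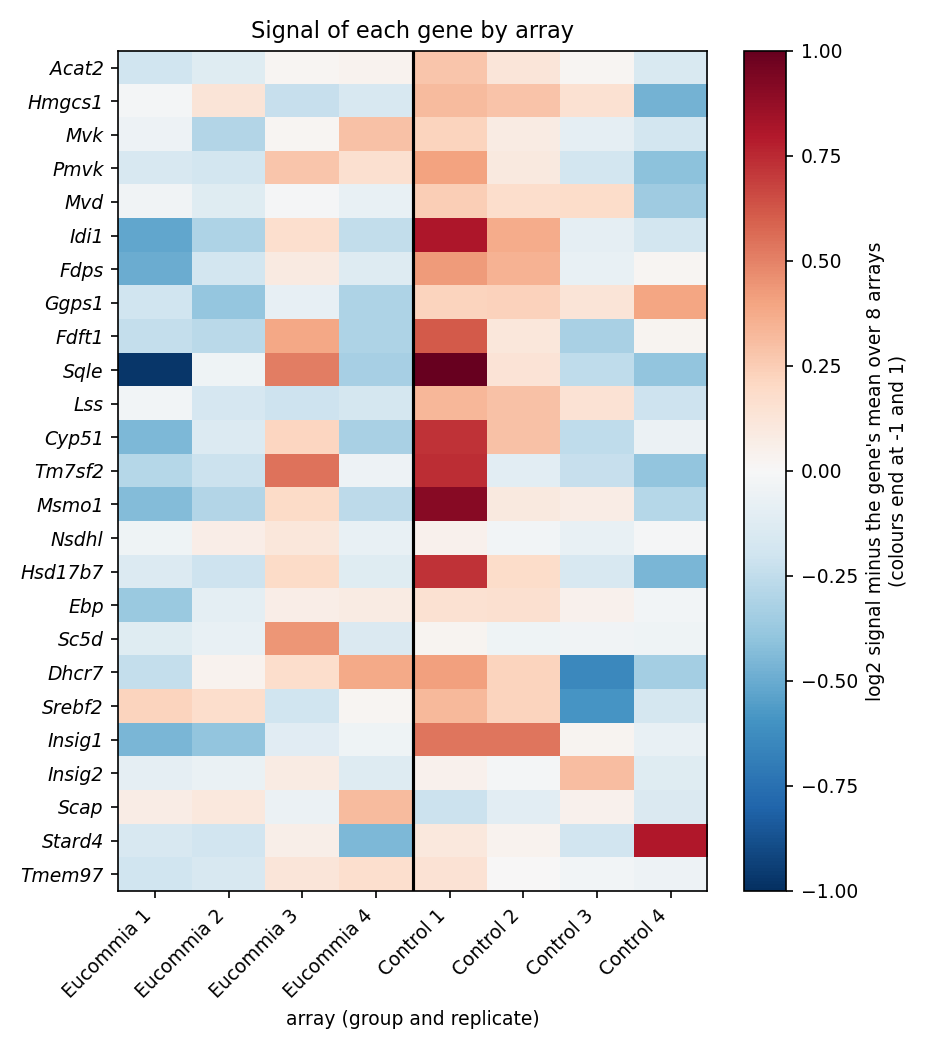
Log2 signal of each tested cholesterol gene on each array, minus the mean of that gene over all 8 arrays, in pathway order from top to bottom; red is above the mean and blue below, and the colours end at -1 and 1. The Control 1 column is red for nearly every enzyme, and Control 3 is mixed. Control 4 and the Eucommia columns other than Eucommia 3 are mostly blue, and Eucommia 3 is redder than Eucommia 1.

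**Figure D4:**
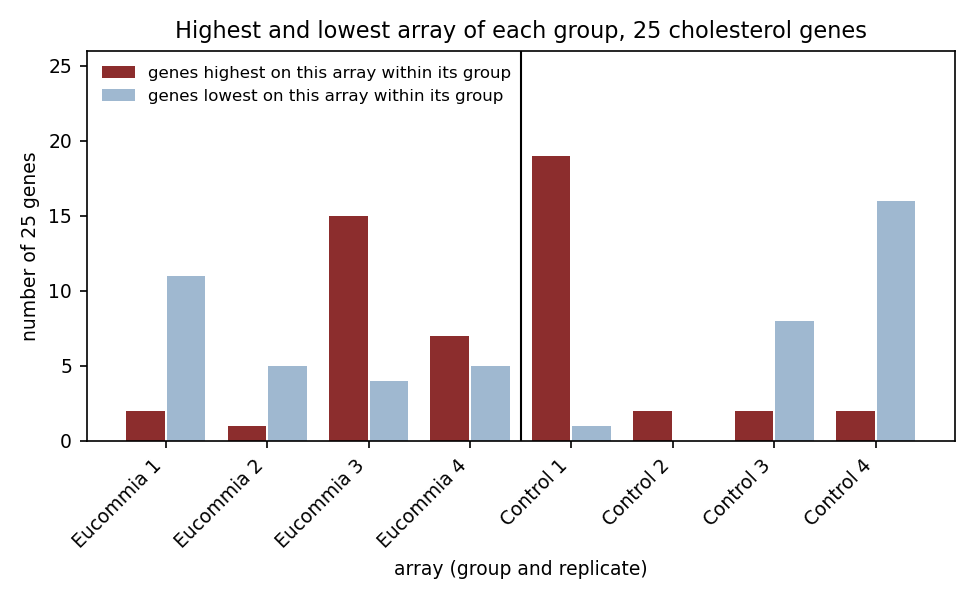
Number of the 25 tested cholesterol genes that were highest (dark bars) or lowest (light bars) on each array among the 4 of its group. Control 1 was highest for 19 genes, Control 4 lowest for 16, and Eucommia 3 highest for 15.

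Compared array by array, Eucommia 3 exceeded Eucommia 1 for 21 of the 25 genes, against 53.4% of the brighter features, and Control 1 exceeded Control 4 for 22 of the 25, against 45.2%. The gap was widest for Sqle, at 2.81-fold between Eucommia 3 and Eucommia 1 and 3.36-fold between Control 1 and Control 4. Msmo1, Hsd17b7, Tm7sf2 and Idi1 were 2.28-, 2.27-, 2.18- and 1.97-fold higher on Control 1 than on Control 4. Stard4 ran the other way, with a Control 1 to Control 4 ratio of 0.619, as did Ggps1 at 0.891 and Scap at 0.953. By step, the lanosterol to cholesterol enzymes had the largest median deviation on Control 1, at 0.52, and the squalene step on Eucommia 3, at 0.49.

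The spread within a group exceeded the difference between groups for most of the set. The range over the Eucommia arrays was wider than the difference between group means for 21 of the 25 genes, and the range over the Control arrays for 24 of the 25, the exception being Ggps1. These counts were not made over all features, so they are not read as particular to the set. The median range was 0.44 over the Eucommia arrays and 0.61 over the Control arrays, beside 0.29 over the Control arrays for brighter features. The median SD was 0.21 in the Eucommia group and 0.33 in the Control group, while brighter features had 0.13 in both. The sets differ in level, as 20 of the 25 genes but all brighter features had a mean signal above the 75th percentile. The SD was larger in the Eucommia group for 7 of the 25 (28%), against 50.6% of the brighter features. Many of the 25 genes share their order of arrays, so this count does not rest on 25 separate observations. A difference in spread between the groups was not tested.

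Technical and cell marker values of the arrays that stood apart were as follows. Control 1 had the highest raw 75th percentile of the 8 arrays, at 279 units, the lowest hepatocyte marker sum of its group, at 6410, and the highest Kupffer cell sum, at 148. Control 4, where the cholesterol genes were low, had a 75th percentile of 259 and a Kupffer sum of 141, but a hepatocyte sum of 7420. Eucommia 3 and Eucommia 1 had percentiles of 229 and 239, Kupffer sums of 81.8 and 78, and hepatocyte sums of 6380 and 5790. The part of these values in the order of the arrays was not tested.

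Beyond the 25, a list of 48 other genes of sterol and isoprenoid handling was examined, of which 39 had a probe and 37 were tested. Of these, 1 was higher and 3 were lower, and the median difference was -0.04 on the log2 scale. The 3 lower genes are 8.11% of those tested, near the 6.17% of all features. The 1 higher gene stands beside 18.4% of all features called higher. In the prenyl branch, which uses farnesyl and geranylgeranyl diphosphate for protein prenylation, dolichol and ubiquinone, 0 of 10 tested genes were called. Among acetyl-CoA suppliers and sterol-linked regulators, 0 of 7 were called. In either direction, 24.6% of all features were called.

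Of 8 tested genes of precursor cleavage and sterol-regulated degradation, 1 was higher and 2 were lower. Among all features, 18.4% were called higher and 6.17% lower. Mbtps2, the protease that makes the final cut releasing the Srebf2 product, had log2 signals of -4.62, -3.94, -4.35 and -4.50 on the Eucommia arrays, against -3.79, -3.14, -3.50 and -3.12 on the Control arrays. The groups did not overlap, and Mbtps2 fell by 0.96 on the log2 scale (SE 0.19, limma adjusted p = 0.00627). Erlin1 and Erlin2 encode partner proteins of the endoplasmic reticulum membrane that take part in sterol-regulated degradation, and they moved in opposite directions. Erlin1 had -3.29, -3.52, -2.95 and -3.48 on the Eucommia arrays, against -2.27, -2.62, -2.57 and -2.44 on the Control arrays, without overlap, a fall of 0.83 on the log2 scale. Erlin2 had -2.62, -2.75, -2.98 and -3.01 on the Eucommia arrays, against -3.42, -3.71, -3.58 and -3.62 on the Control arrays. It rose by 0.74 ± 0.12, again without overlap (limma adjusted p = 0.00154; Erlin1 0.00275). After background correction by normexp, the difference of Erlin2 was 0.14 and did not pass (adjusted p = 0.0713). In the same setting Mbtps2 gave -0.21 (adjusted p = 0.00907) and Erlin1 -0.40 (adjusted p = 0.00125), both still called but smaller. These 3 probes were dim, with mean log2 signals of -3.87 for Mbtps2, -2.89 for Erlin1 and -3.21 for Erlin2. The lowest raw signal well above background was 5.69 to 6.05 units on the Eucommia arrays and 11.2 to 13.7 units on the Control arrays, and its part in these calls was not tested.

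Of 12 tested genes of sterol storage and traffic, 1 was lower (8.33%, against 6.17% of all features). Stard3, a late endosomal cholesterol carrier, had 5.06, 5.06, 4.82 and 4.98 on the Eucommia arrays, against 5.27, 5.42, 5.41 and 5.32 on the Control arrays. The groups did not overlap, and the difference was -0.37 ± 0.09 (limma adjusted p = 0.0166). Its other probe gave -0.13 with overlapping groups, and the mean over both probes gave -0.25 with an adjusted p of 0.0929.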

How the data were processed

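Total RNA of rat liver was labelled with Cy3 (500 ng of RNA each, per the labels' protocols) and hybridised to 8 one-colour Agilent arrays, 4 Eucommia and 4 Control. Per the submitters' processing notes, the authors used Agilent Feature Extraction 10.1.1.1, and the deposited intensity of each spot is its processed signal. The authors' deposited series table of intensity values equalled those signals at 100% of 43379 spots on every array (within 1e-6 of the value), so it is linear, neither centred nor a ratio. The number of arrays limits the precision.

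Control spots and outlier spots were removed, replicate spots of 1 probe were averaged, and log2 signal minus the 75th percentile of its array was taken. Probes well above background on at least 4 of 8 arrays were kept (27716 of 41012). Accessions of 16336 probes (39.8%) matched a current rat symbol in RefSeq (GRCr8), and an unnamed probe was a feature of its own. A gene is its probe with the highest mean signal. The comparison used limma 3.58.1 under R 4.3.3, 2-sided, Benjamini-Hochberg adjusted over all 25121 features at a threshold of 0.05, after the fit was tested on simulated data. The named genes are all 27 of the set, plus every gene past the threshold from 4 lists of related genes. The genes, lists and tests were chosen with earlier results of these data known. Alternatives changed the dim-probe filter, scaling, background correction (normexp with offset 50 on the median spot signal and background), probe summary, variance model, replicate block and each array in turn. The labels give no pairing of samples by replicate number. The correlations of deviations between samples of the same number were -0.0396, -0.0286, -0.0627 and -0.104, which cannot show whether samples were paired. The sequences are RefSeq's. Some genes of the pathway are not analysed here.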

Additional observations from a re-analysis of the deposited data

Results flagged for a closer look

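Within the 50 groups of 4 arrays checked (25 genes in each of 2 groups), 4 held an array whose gap to the nearest other array, divided by the range of the group, exceeded Dixon's 95% critical value for 4 samples. Chance alone gives about 1 such array in 20 groups. On Eucommia 3, Fdft1 (squalene synthase) had a log2 signal of 0.86, against 0.17 to 0.24 on the other Eucommia arrays. On the same array, Sc5d (a sterol desaturase) had 4.05, against 3.46 to 3.53 on the other Eucommia arrays. Sc5d also had a high value on Control 1, at 3.63 against 3.56 to 3.57 on the other Control arrays, a gap that is small in absolute terms. On Control 4, Mvd (the decarboxylase that makes isopentenyl diphosphate) had 0.13, against 0.66 to 0.73 on the other Control arrays. These are the arrays on which most genes of the set were high or low. Without Eucommia 3 the log2 fold change of Sc5d was -0.09, beside 0.05 with it, and Fdft1 gave -0.38, beside -0.21. Without Control 4 Mvd gave -0.27, beside -0.13. None of these was called.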

How the results depend on the processing

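Ggps1 was called lower under all 22 alternatives (log2 fold change -0.75 to -0.34, limma adjusted p 0.00123 to 0.0434), as were Mbtps2 and Erlin1, whose log2 fold changes ranged from -1.30 to -0.21 and from -1.09 to -0.40. Erlin2 kept its call in 21, losing it after normexp correction, and Stard3 in 20, losing it as a mean over probes and with the replicate block (adjusted p = 0.0712). The count of cholesterol genes called was 1, and became 2 with quantile normalization (Ggps1, Lss), 9 with median centring (Ggps1, Acat2, Idi1, Fdps, Lss, Ebp, Insig1, Insig2 and Stard4), 3 after normexp (Ggps1, Lss, Insig1), 2 as a mean over probes (Ggps1 and Srebf2, of which the second takes in a probe above background on 0 of 4 Control arrays and is not read as a change), 2 with trended and robust variances and 2 with array weights (Ggps1 and Insig1 in each). Leaving out 1 array gave 1 to 3, with 3 only without Control 4. Insig1 passed in 5 and Lss in 4 alternatives. Median centring moved the median of all genes to -0.24, against 0.02, and that of the set to -0.40, against -0.14. The set's median minus that of all genes was -0.16 in both, as subtracting 1 constant per array largely fixes it, and was -0.09 with quantile normalization, -0.09 with cyclic loess, -0.06 with no filter on dim probes and -0.07 without Control 1. Leaving out 1 array moved the set's median between -0.21 (without Control 4) and -0.06 (without Control 1).

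Over all features, 6171 were called (74.9% higher). The count was 12769 with no filter on dim probes (42.2% higher), 3695 with a filter on all 8 arrays (62.7% higher), 11739 with median centring (32.3% higher), 5135 with the replicate block and 4932 to 5734 without 1 array. The share higher was 58.8% with quantile normalization, 61.7% with cyclic loess and 59.6% after normexp. The replicate block left 1 cholesterol gene called. The cause of these shifts was not tested.

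Signs turned for some genes that were not called. With quantile normalization Tm7sf2 was 0.04, Srebf2 -0.13 and Tmem97 0.01. With median centring Pmvk was -0.21, Nsdhl -0.22, Sc5d -0.21, Dhcr7 -0.07, Srebf2 -0.15 and Scap -0.04. With the percentile over detected probes Mvk was 0.02, Tm7sf2 0.03 and Tmem97 0.00. With cyclic loess Mvk was 0.01, Tm7sf2 0.05, Srebf2 -0.03 and Tmem97 0.01. After normexp Mvk was 0.06, Tm7sf2 0.12 and Srebf2 -0.10. With array weights Tm7sf2 was 0.03. Leaving out 1 array moved Mvk between -0.11 and 0.08, Pmvk between -0.08 and 0.19, Tm7sf2 between -0.19 and 0.24, Nsdhl between 0.00 and 0.06, Hsd17b7 between -0.32 and 0.08, Sc5d between -0.09 and 0.10, Dhcr7 between 0.00 and 0.35, Srebf2 between -0.07 and 0.24, and Tmem97 between -0.10 and 0.03.

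The order of arrays was counted again under 5 other scalings, chosen after seeing the data. Eucommia 3 was highest of its group for 15 to 19 genes, Eucommia 1 lowest for 11 to 14, Control 1 highest for 21 and Control 4 lowest for 13 to 15. A slide block could not be fitted, since each slide holds 1 group.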
